A study of Mus musculus with 10 samples.

Results

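Fatty acid binding proteins and retinoid binding proteins carry lipids that do not dissolve in water. The small intracellular ones, encoded by the Fabp and Crabp genes, hold a fatty acid or a retinoic acid molecule inside a barrel of beta strands and pass it to membranes, enzymes or nuclear receptors. In the developing brain they are known from radial glia, the precursor cells of the cortex, and from young neurons, and in the eye retinoids are the raw material of the visual pigment. Rbp4 belongs to another family, the lipocalins, and is the secreted carrier that brings retinol through the blood to tissues.

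The 7 genes described here are Fabp3, Fabp4, Fabp5, Fabp7, Crabp1, Crabp2 and Rbp4. They were taken as every probe whose only gene symbol in the platform annotation was one of these names, which gave 7 probes, 1 per gene, of the 33012 on the array. Transcripts were measured on 10 single-channel Applied Biosystems arrays in 2 pooled mouse RNAs, with no treatment. Of these, 5 arrays carried RNA of retina described as adult, pooled from 350 C57/B6 mice. The other 5 carried RNA of cortex from postnatal day 1, pooled from 19 mice that one label calls C57/B6 and the series text calls Swiss-Webster. Arrays of a tissue were repeats of 1 pool, so every p-value below measures the spread between arrays and not between animals, and tissue cannot be told apart from age or, given the labels, from strain. In whole-tissue RNA, fewer cells of a type and less RNA per cell cannot be told apart either.

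The deposited intensities had array medians of 836 to 987 in retina and 1255 to 1341 in cortex. They were put on the log2 scale and quantile-normalized, and levels below are on that scale unless stated otherwise. A call required both a 2-fold difference and an adjusted p under 0.05 in limma, with Benjamini-Hochberg adjustment over all probes. Markers went with the tissue labels: all 5 measured photoreceptor genes were higher in retina and all 5 measured cortical neuron genes were lower. No detection flags were used, so the 95th percentile of 747 probes named for olfactory receptors, 10.77 in retina and 10.65 in cortex, served as a yardstick for dim signal.

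Of the 7 genes, 3 were lower in retina than in newborn cortex (Fabp7, Fabp5 and Fabp3), 1 was higher (Fabp4) and 3 were not called (Crabp1, Crabp2 and Rbp4). Over the whole array 25.4% of probes were called, 12.1% higher and 13.3% lower. Without normalization the balance over the array shifted, to 2474 probes higher and 7621 lower, while 1 of the 7 genes was higher and 4 were lower. The median difference, retina minus cortex, was -0.83 over the 7 genes and -0.01 over all probes. The values of the 2 tissues did not overlap in 6 of the 7 genes, all but Rbp4, against 40.5% of all probes.

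**Figure D1:**
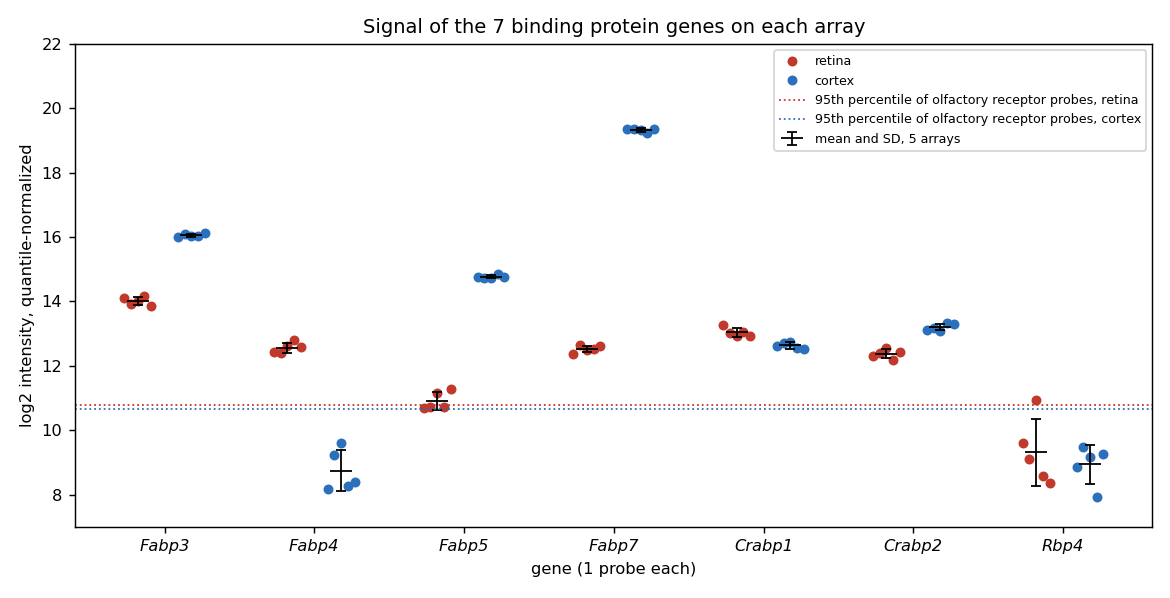
Log2 intensity of the 7 genes (y axis, quantile-normalized) on each of 5 retina and 5 cortex arrays, with the mean and SD of each tissue and dotted lines at the 95th percentile of olfactory receptor probes. Fabp7 lies between 12.37 and 12.64 in retina and between 19.24 and 19.36 in cortex, and only the Rbp4 points of the tissues overlap.

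Fabp7, the brain lipid-binding protein of radial glia and astrocytes, which prefers the long omega-3 fatty acids, was lower in retina by more than any other of the 7 genes. It was at 12.37, 12.64, 12.48, 12.52 and 12.61 on retina arrays 1 to 5, against 19.35, 19.35, 19.34, 19.24 and 19.36 on cortex arrays 1 to 5. Every retina array was far below every cortex array, and the retina values were still above the dim yardstick. Before normalization these were intensities of 4144 to 5844 in retina and 757608 to 868052 in cortex. The difference was -6.80 (SE 0.053, limma adjusted p = 5.7e-21), a 112-fold lower signal in retina and the 15th most negative difference of the 33012 probes. The SDs over repeat arrays were 0.107 in retina and 0.0499 in cortex, and without normalization 0.199 in retina and 0.0763 in cortex.

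Fabp5, the epidermal type, which in the brain is found in glia and neurons and can carry ligands to the receptor PPAR delta, followed. Its values were 10.68, 10.71, 11.15, 10.72 and 11.28 in retina, against 14.76, 14.73, 14.73, 14.86 and 14.77 in cortex. The retina signal was close to the yardstick, with 3 of 5 arrays below it, while the cortex signal was well above and tight. The difference was -3.86 (SE 0.11, limma adjusted p = 1.0e-14), or 14.5-fold. Since the retina values were near the dim range, the size of this fold rests in part on signal not shown to lie above background.

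Fabp3, the heart type, which neurons of the brain also make, was lower by less. It was at 14.11, 13.92, 14.02, 14.18 and 13.86 in retina, against 16.01, 16.10, 16.05, 16.02 and 16.12 in cortex. Both tissues were bright and did not overlap. The difference was -2.04 (SE 0.059, limma adjusted p = 1.7e-14), or 4.11-fold.

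Some radial glia and astrocyte markers were lower in retina too. Of 5 measured markers, 3 were lower in retina and 2 had no call (list median -1.27). The matrix gene Tnc was at -2.72 (SE 0.072), the folate enzyme gene Aldh1l1 at -1.75 (SE 0.087) and the Notch target Hes5 at -1.27 (SE 0.054). The log2 of the summed intensity of the 5, called the summed level below, ranged from 18.24 to 18.43 in retina arrays and 18.57 to 18.63 in cortex. A summed level follows the brightest genes of its list and says little of the others. Here most of it was Vim, which had no call, at 18.09 in retina and 17.77 in cortex. Of 4 measured genes of dividing cells, 3 were lower in retina, and 1 was dim in both tissues and had no call. Those lower were Rrm2, a subunit of ribonucleotide reductase, at -5.78 (SE 0.18), Birc5 at -4.25 and Top2a at -4.05. All 3 had retina values below the yardstick (8.08, 8.26 and 8.22), so these sizes depend on dim signal. The summed level of the 4 ranged from 9.95 to 10.62 in retina arrays and 14.64 to 14.69 in cortex. Markers of Müller glia, the radial glial cells of the adult retina, went the other way: all 6 measured were higher in retina, among them Crb1 (7.02), Abca8a (5.02), Car2 (5.02) and Car14 (4.90), with a summed level of 20.82 to 20.91 in retina and 18.02 to 18.15 in cortex. The cortex values of Crb1 and Abca8a were below the yardstick, so their sizes depend on dim signal. The part of any of these cell types in the Fabp differences was not tested.

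Fabp4, the adipocyte type, which capillary endothelium and macrophages also make, was the only one of the 7 genes called higher in retina. It was at 12.42, 12.39, 12.61, 12.79 and 12.58 in retina, against 8.19, 9.24, 9.59, 8.26 and 8.41 in cortex. All 5 retina arrays were above the yardstick and all 5 cortex arrays were below it, and the cortex arrays scattered over more than 1 log2 unit. The difference was 3.82 (SE 0.26, limma adjusted p = 1.1e-09), or 14.2-fold, a size that depends on dim cortex signal. An offset of 100 added to the intensities before the log left it at 3.52.

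Markers of endothelium, adipocytes and macrophages, the cell types known for Fabp4, were read as well. Of 7 endothelial markers, 1 was higher, 3 were lower and 3 had no call (list median -0.94), with a summed level of 16.42 to 16.65 in retina and 16.44 to 16.52 in cortex. The VEGF receptor gene Kdr was higher (2.17, SE 0.061), and the tight junction gene Cldn5 (-2.03, SE 0.055), the angiopoietin receptor gene Tek (-1.32, SE 0.20) and the cadherin gene Cdh5 (-1.39, SE 0.49) were lower. The retina value of Tek was below the yardstick. Cdh5 had dim signal throughout and passed narrowly: the call was lost without retina replicate 1 or 3 and without cortex replicate 1, 2, 4 or 5, and the difference shrank to -0.93 without retina replicate 3. All 5 measured adipocyte markers were dim in both tissues and none was called (median 0.03, summed level 10.79 to 12.67 in retina and 11.19 to 12.004 in cortex). Without cortex replicate 2 the lipid droplet gene Plin4 was called higher, and it is named here after its values were seen. All 3 measured macrophage and microglia markers were dim in both tissues as well, and 1 of them, Aif1, was called lower (-1.57, SE 0.36, summed level of the list 9.47 to 10.38 in retina and 10.45 to 11.15 in cortex). Without cortex replicate 1, 2 of the 3 were called lower, Itgam being the other and likewise named after its values were seen. With the adipocyte and macrophage markers dim, their calls say little about those cells. The part of any of these cell types in the Fabp4 difference was not tested.

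Fabp4 and Fabp5 are close neighbours. In the mouse RefSeq annotation (GRCm38.p6) they lie in a run of 5 protein-coding genes on chromosome 3, in the order Fabp5, Pmp2, Fabp9, Fabp4 and Fabp12. The measured genes of this run went in opposite directions, with Fabp5 lower in retina (-3.86), Fabp9 not called and dim in both tissues (0.28, SE 0.30), and Fabp4 higher (3.82). Fabp12, described in retina and testis of the rat, was higher too, with a mean of 17.39 ± 0.07 in retina against 7.70 ± 0.76 in cortex (SD, n = 5) and a difference of 9.69 (SE 0.25). Its cortex signal, like that of Fabp4, was below the yardstick, so the sizes of both differences depend on dim signal and are not ranked. Pmp2, the myelin member, was not analysed here.

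The cellular retinoic acid binding proteins are close relatives with different roles. Crabp1 is known for holding retinoic acid in the cytoplasm and handing it to the enzymes that break it down, and Crabp2 for delivering it to retinoic acid receptors in the nucleus. Crabp1 was at 13.27, 13.04, 12.93, 13.04 and 12.92 in retina, against 12.62, 12.72, 12.75, 12.56 and 12.52 in cortex. Crabp2 was at 12.30, 12.41, 12.56, 12.18 and 12.43 in retina, against 13.12, 13.19, 13.10, 13.33 and 13.29 in cortex. Both were above the yardstick on all arrays, and in both genes the tissues did not overlap, with retina on top for Crabp1 and cortex on top for Crabp2.

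The Crabp1 difference was 0.40 (SE 0.080, limma adjusted p = 0.00037), with a 95% interval of 0.23 to 0.57, which lies under the 2-fold minimum. The Crabp2 difference was -0.83 (SE 0.082, limma adjusted p = 1.6e-07), with an interval of -1.003 to -0.66, so the estimate was short of the minimum but its interval just reached past it. These small differences depended on the scaling. The deposited Crabp1 intensities overlapped, at 6744 to 8089 in retina and 6662 to 8040 in cortex, while those of Crabp2 did not, at 3931 to 5182 in retina and 10271 to 11728 in cortex. Without normalization, where the median of all probes was at -0.41, Crabp1 was at 0.02 (limma adjusted p = 0.87) and Crabp2 was called lower at -1.22. With each array centred on its median, where the median of all probes was at 0.13, they were at 0.56 and -0.69 and neither was called.

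**Figure D2:**
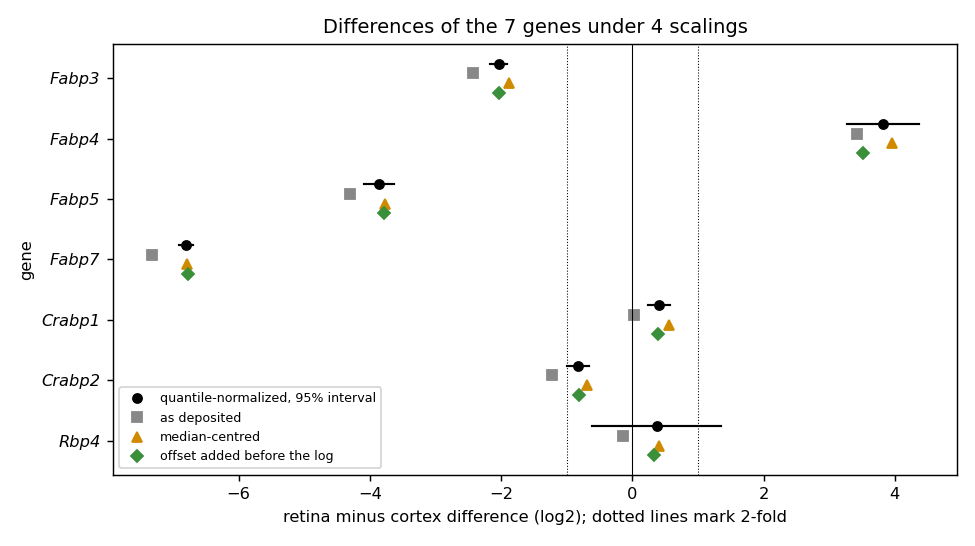
Retina minus cortex difference on the log2 scale (x axis) for each gene (y axis) under 4 scalings, with 95% intervals of the limma fit for the quantile-normalized values. Fabp7, Fabp5, Fabp3 and Fabp4 stay past the dotted 2-fold lines under all 4, while Crabp2 passes the line at -1.22 only without normalization and Rbp4 is on both sides of 0.

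The ratio of 2 genes on the same array is free of most array-wide scaling, so it was used to describe how unequal the tissue differences of paralogues were. For 4 pairs the within-array log2 ratio was compared between tissues by an exact 2-sided permutation test over 252 assignments, with Benjamini-Hochberg adjustment over the 4 pairs. The ratio itself depends on the probes and only its change between tissues is read. The Crabp1 over Crabp2 ratio lay at 0.37 to 0.96 in retina and -0.77 to -0.35 in cortex, a change of 1.23 (exact permutation p = 0.00794, adjusted p = 0.00794). That change was between 1.22 and 1.24 without normalization, with median centring and with an offset of 100. Crabp1 was not called under any of these settings, while Crabp2 was called without normalization.

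Ratios were also formed among the 3 fatty acid binding protein genes that were lower in retina. The Fabp7 over Fabp5 ratio lay at 1.34 to 1.92 in retina and 4.38 to 4.62 in cortex, a change of -2.94. The Fabp7 over Fabp3 ratio lay at -1.74 to -1.25 in retina and 3.22 to 3.34 in cortex, a change of -4.76. The Fabp5 over Fabp3 ratio lay at -3.46 to -2.58 in retina and -1.37 to -1.16 in cortex, a change of -1.82. Fabp5 was below the yardstick on 3 of 5 retina arrays, so the sizes of both changes that involve it depend on dim signal, and if those values lie at a floor the Fabp7 over Fabp5 change is overstated. Fabp7 and Fabp3 were above the yardstick on every array. The tissues did not overlap in any of the 4 pairs, and each p was 0.00794, the smallest that 252 assignments can give, before and after adjustment. The differences and spreads of the single genes given above already implied this separation, so these p-values add no support of their own.

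**Figure D3:**
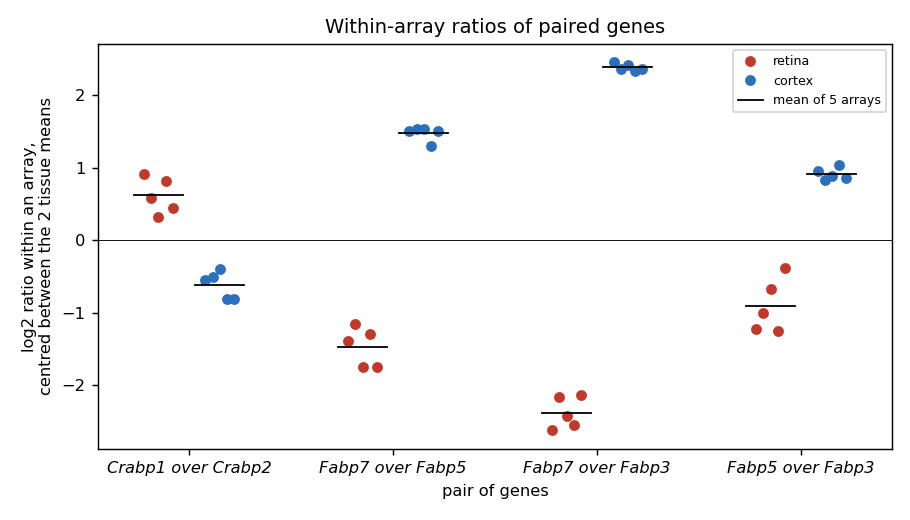
Within-array log2 ratio of 2 genes (y axis, centred midway between the tissue means) for 4 pairs on 5 retina and 5 cortex arrays, with the mean of each tissue as a line. Retina lies above cortex for Crabp1 over Crabp2 and below it for the 3 Fabp pairs, with the widest gap, -4.76, for Fabp7 over Fabp3.

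Rbp4, the plasma retinol carrier, made mostly by the liver, was dim in both tissues. It was at 9.60, 9.10, 10.93, 8.57 and 8.36 in retina, against 8.86, 9.48, 9.17, 7.93 and 9.25 in cortex. The tissues overlapped, and retina array 3 was the only one of the 10 above the yardstick. The difference was 0.37 (SE 0.46, limma adjusted p = 0.57). Its 95% interval ran from -0.61 to 1.35, so these arrays settle neither its direction nor its size within those bounds. Its sign was not stable, at -0.04 without retina replicate 3 and -0.14 without normalization.

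Genes listed as markers of epithelia beside the neural retina and cortex, which are known for retinol handling, were mostly called higher in retina. Of 7 retinal pigment epithelium markers, 2 had no call and 5 were higher in retina, among them Rgr (7.29), Rpe65 (6.81), Rrh (5.86) and Dct (5.21), with a summed level of 16.74 to 16.91 in retina and 10.80 to 11.60 in cortex. All 5 had cortex values below the yardstick, so their sizes depend on dim signal. Of 7 measured choroid plexus markers, 6 were called higher in retina, 1 of them dim in both tissues, and 1 was lower. Otx2 (5.20), Aqp1 (4.79), Kcne2 (4.39) and Folr1 (1.67) were higher, of which Otx2 is also a photoreceptor gene. Ttr, the plasma partner of Rbp4, was the 1 that was lower in retina (-1.38, SE 0.058). The summed level of the list ranged from 19.81 to 19.87 in retina arrays and 19.68 to 19.90 in cortex, where Ttr made up most of it. These counts are no measure of choroid plexus in either tissue. Rbp4 itself stayed below the yardstick on all arrays but retina array 3, and the part of these epithelia in its values was not tested.

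RefSeq promoter windows (GRCm38.p6) were matched for 4 of the 7 genes, Fabp3, Fabp7, Crabp1 and Rbp4, the last with 2 start sites. The 250 bases before the start site are shown for Fabp7 and Fabp3, since both were lower in retina, and for Crabp1, a gene of the same family that was not called. Capitals mark matches on either strand to 4 short motifs. The first is AGGTCA, the half-site bound by nuclear receptors. The second is the GC box, searched as GGGCGG. The third is the CCAAT box, searched as those letters. The last is the TATA box, searched as TATAAA. No matches to different motifs overlapped.
Fabp7, chr10:57784673-57784922, plus strand: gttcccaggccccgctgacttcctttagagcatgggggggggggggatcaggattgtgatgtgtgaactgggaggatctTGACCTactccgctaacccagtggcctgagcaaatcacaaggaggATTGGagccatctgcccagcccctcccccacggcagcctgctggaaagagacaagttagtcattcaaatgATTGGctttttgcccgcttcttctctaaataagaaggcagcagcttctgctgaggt
Fabp3, chr4:130308488-130308737, plus strand: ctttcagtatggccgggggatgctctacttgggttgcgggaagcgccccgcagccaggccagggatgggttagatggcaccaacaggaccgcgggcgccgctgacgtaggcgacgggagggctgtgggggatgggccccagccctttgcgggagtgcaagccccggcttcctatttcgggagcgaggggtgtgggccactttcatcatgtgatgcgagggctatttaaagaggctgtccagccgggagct
Crabp1, chr9:54764498-54764747, plus strand: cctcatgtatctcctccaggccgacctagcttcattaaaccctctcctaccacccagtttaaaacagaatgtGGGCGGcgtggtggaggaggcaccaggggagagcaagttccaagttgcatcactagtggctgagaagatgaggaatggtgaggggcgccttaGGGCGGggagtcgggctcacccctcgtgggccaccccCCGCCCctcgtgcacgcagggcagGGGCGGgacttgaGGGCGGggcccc

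The 3 windows had little in common by these letters. The Fabp7 window held 1 half-site and 2 CCAAT boxes, both on the minus strand, and was 54.8% G and C. The Fabp3 window, at 64.8% G and C, held none of the 4 motifs. The Crabp1 window held 5 GC boxes and was 63.6% G and C. Of all 32851 promoter windows of that length, 14% held the half-site, 33.8% a CCAAT box, 32.7% a GC box and 12.4% a TATA box. These are matches of letters and no measurement of binding.

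Other genes of the family and its pathways were read from lists. Apart from Fabp12, the intracellular relatives gave no call: of 7 measured, 1 was higher and 6 had no call, and those 6 (Fabp1, Fabp2, Fabp6, Fabp9, Rbp2 and Rbp7) were dim in both tissues. Of 7 lipocalins, relatives of Rbp4, 1 was higher, 1 was lower and 5 had no call. Lcn2, which binds bacterial iron carriers, was higher, with a mean of 12.61 ± 0.17 in retina against 8.48 ± 0.78 in cortex (SD, n = 5). The difference was 4.13 (SE 0.30), with the cortex value below the yardstick. Apod was lower, with a mean of 10.11 ± 0.29 in retina against 14.04 ± 0.06 in cortex and a difference of -3.94 (SE 0.12), with the retina value below the yardstick. The median of this list was 0.21.

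Genes that supply and remove the ligand of the Crabp proteins were divided. Of 6 measured genes of retinol uptake and storage, 2 were higher, 1 was lower and 3 had no call (list median 0.55). The lower one was Ttr, given above, and those higher were the visual carrier genes Rbp3 (10.98, SE 0.16) and Rlbp1 (3.15, SE 0.081), which belong to other protein families. The cortex value of Rbp3 was below the yardstick. Of 11 genes of retinoic acid synthesis, 3 were higher, 2 were lower and 6 had no call (list median -0.68). Aldh1a1, a retinaldehyde dehydrogenase, was higher by 3.73 (SE 0.061) and Rdh10, which oxidises retinol, by 1.83 (SE 0.13). Dhrs3 was higher by 3.31 (SE 0.065). It reduces retinaldehyde and so works against synthesis, although it is counted in this list. Aldh1a2, the dehydrogenase of meninges, was lower (-1.36, SE 0.34) from dim values and lost its call in limma's test against a 1.5-fold difference (adjusted p = 0.07). The other gene called lower, Adh1, was dim in both tissues too (-1.10, SE 0.30), lost its call without retina replicate 5 and is named here after its values were seen. Without normalization 6 genes of this list were called lower.

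The enzymes that break down retinoic acid went in opposite directions. Cyp26a1 averaged 11.03 ± 0.18 in retina against 7.84 ± 0.33 in cortex (SD, n = 5), for a difference of 3.19 (SE 0.27). Its cortex value was below the yardstick and its retina value only just above, so the size depends on dim signal. Cyp26b1 averaged 11.44 ± 0.19 in retina against 13.94 ± 0.04 in cortex, for a difference of -2.50 (SE 0.088). Of 7 measured receptors for retinoic acid and fatty acids, 2 were higher and 5 had no call (list median 0.07). Ppara, a fatty acid receptor, was higher by 4.6 (SE 0.21), and Rarb by 1.15 (SE 0.26), both with cortex values below the yardstick. Rarb lost its call without cortex replicate 3 (0.95), in limma's test against a 1.5-fold difference and without normalization (0.65). The receptor fed by Fabp5, Ppard, was dim in both tissues (-0.19, SE 0.35). Of 8 measured genes known to respond to retinoic acid, 3 were higher, 1 was lower and 4 had no call (list median 0.64), and all 4 that were called, Dhrs3, Cyp26a1, Rarb and Cyp26b1, stand in the lists above.

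**Figure D4:**
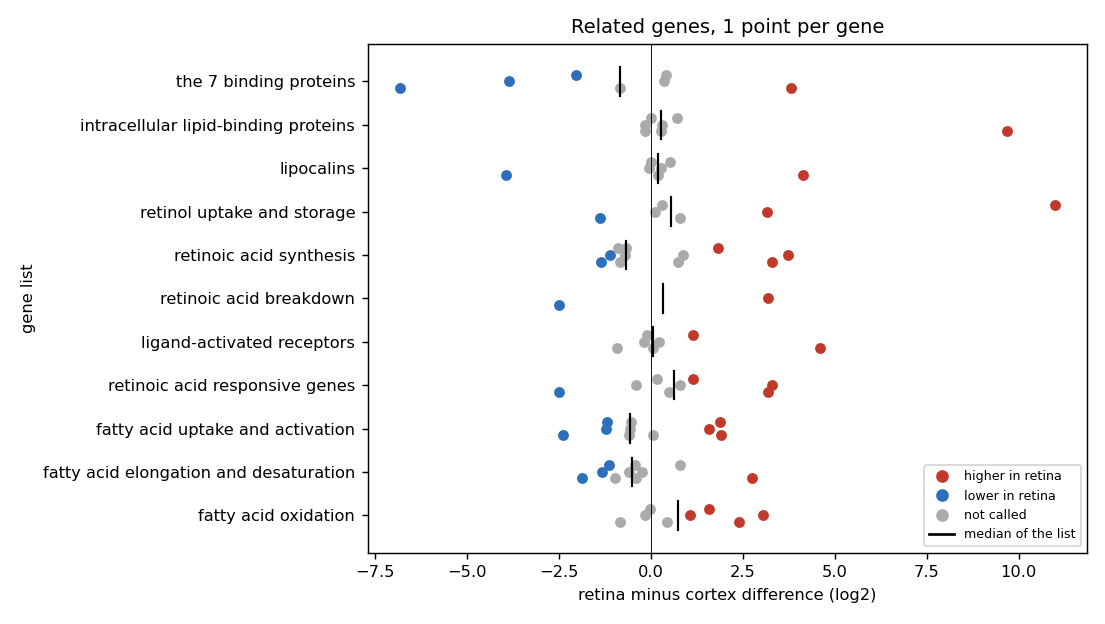
Retina minus cortex difference on the log2 scale (x axis) of the 7 genes and of each measured gene in 10 related lists (y axis), coloured by call, with the median of each list as a line. Medians of the 10 lists run from -0.68 to 0.75, while single genes reach 9.69 (Fabp12) and 10.98 (Rbp3), both with cortex values below the yardstick.

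Genes that handle fatty acids, the ligands of the Fabp proteins, were read in 3 lists, and no test compared the lists. Of 8 measured genes of fatty acid oxidation, 4 were higher and 4 had no call (list median 0.75). Cpt1a, which starts mitochondrial import of fatty acids, was higher by 3.05 (SE 0.23), with the cortex value below the yardstick. Its partner Cpt2 was higher by 2.39 (SE 0.056), Acadvl by 1.60 (SE 0.051) and Hadhb by 1.06 (SE 0.078). Without normalization Hadhb was at 0.66 and under the 2-fold minimum. Of 10 genes of elongation and desaturation, 1 was higher, 3 were lower and 6 had no call (list median -0.51). The desaturase genes Fads2 (-1.86), Fads3 (-1.34) and Fads1 (-1.14) were lower, and Elovl4, the elongase of very long chain fatty acids in photoreceptors, was higher (2.75, SE 0.043). Of 10 measured genes of uptake and activation, 3 were higher, 3 were lower and 4 had no call (list median -0.55). Among those lower, Acsl4 had 2 probes whose calls differed, and the more intense probe was counted. It is named here after its values were seen. The acyl-CoA synthetase genes Acsl3 (1.92) and Acsl6 (1.89) and the dim scavenger receptor gene Cd36 (1.58) were higher. The transporter gene Slc27a2 was lower (-2.40, SE 0.34), with the retina value below the yardstick.

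Neurons and coverings of the 2 tissues that could hold Crabp transcripts moved as follows. All 6 measured amacrine cell markers were higher in retina, among them Pax6 (4.33), Chat (3.63), Tfap2b (3.56) and Calb2 (2.97), with a summed level of 19.13 to 19.30 in retina and 16.96 to 17.15 in cortex. All 4 measured ganglion cell markers were higher, Sncg (6.58), Isl2 (4.40), Nefh (4.37) and Rbpms (2.32), with a summed level of 16.54 to 16.76 in retina and 11.96 to 12.53 in cortex. All 6 markers of meninges and fibroblasts were lower, among them Col3a1 (-6.53), Ogn (-3.05), Lum (-2.98) and Col1a2 (-2.89), with a summed level of 13.52 to 13.79 in retina and 16.98 to 17.06 in cortex. Of 6 lens markers, 3 were higher, the crystallin genes Cryba1 (6.71), Cryaa (6.71) and Crygs (6.48), and 3 were dim and not called, with a summed level of 16.31 to 16.57 in retina and 11.37 to 11.84 in cortex. Sizes depend on dim signal for Chat, Sncg, Isl2, Rbpms and the 3 crystallin genes, whose cortex values were below the yardstick. The same holds for Col3a1, Ogn and Lum, whose retina values were below it. The part of these cells in the Crabp1 and Crabp2 values was not tested.

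Repeat arrays showed how precisely each gene was read. The SD over 5 arrays was larger in retina than in cortex for 6 of the 7 genes, all but Fabp4, and for 62.2% of all probes. Without normalization it was larger in retina for 5 of the 7, since Crabp1 then had 0.101 in retina and 0.106 in cortex, and for 62.8% of all probes. Fabp3, at 0.133 in retina and 0.0469 in cortex, lay in the brightest of 10 equal bins of probes, whose median SD was 0.101 in retina and 0.0735 in cortex. Fabp5 had an SD of 0.281 in retina and 0.0530 in cortex, where probes of the same brightness bin had medians of 0.130 in retina and 0.10 in cortex. Bins were formed on the mean over all 10 arrays. Fabp5 averaged 10.91 in retina against 14.77 in cortex, so its bin gives no measure for probes as dim as it was in retina. Fabp4, with 0.164 in retina and 0.638 in cortex, varied most in the tissue where it was dim. Rbp4 was the least precise, with 1.03 in retina and 0.605 in cortex, against medians of 0.569 in retina and 0.464 in cortex for its bin.

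For each called gene the probes with the most similar pattern were found as those whose 10 values, each centred on its own mean, lay at the smallest Euclidean distance over the 10 arrays. For Fabp7 these were Dlx5 (distance 0.977, difference -6.88), Npas1 (1.14, -6.25) and Sox11 (1.18, -7.24). Fabp5 was nearest to Plppr1 (0.377, -3.88), Jpt1 (0.442, -3.86) and Lxn (0.481, -3.89). Fabp3 was nearest to the endothelial gene Cldn5 (0.272, -2.03), Cdk4 (0.278, -1.98) and Tmem121 (0.294, -1.93). Fabp4 was nearest to Chil1 (0.820, 4.11), the lens crystallin gene Crygd (0.893, 4.07) and Folh1 (1.05, 3.56). With 2 pools, nearness here mainly reflects an equal difference between tissues.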

How the data were processed

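The 10 arrays carried digoxigenin-labelled cRNA made from 1 µg of total RNA and read by chemiluminescence, per the labels' protocols. The authors deposited positive linear intensity values for 33012 probes. How the images were scanned, corrected for background and normalized, and any detection calls, are not given in the sources used here. Groups and replicate numbers were taken from the sample titles.

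Because array medians spanned 0.682 on the log2 scale, log2 values were quantile-normalized. Retina was compared with cortex over all probes with limma 3.58.1 in R 4.3.3 (lmFit, eBayes with an intensity trend), 2-sided, with Benjamini-Hochberg adjustment, and the script was tested on simulated data. Differences are retina minus cortex, and standard errors (SE) are limma's. The platform annotation gave 14411 probes 1 symbol, 247 several, and did not list 18354. The most intense probe stood for a list gene. Levels of different probes were set against each other in the dim yardstick, the brightness bins, the within-array ratios and the summed levels. Such comparisons depend on the probes.

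The members, the 24 lists (10 of relatives and pathways, 14 of cell type markers) and the tests were chosen with earlier results of these data known. Genes named were the members, up to 4 called genes per list plus any called against its list's median, and the 3 probes nearest in pattern to each called member. Exceptions are given as values only. The number of arrays limits the precision. Alternatives were other scalings, an offset, a filter on dim probes, other variance models, limma's treat, a replicate block and leaving out each array.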

Additional observations from a re-analysis of the deposited data

Results flagged for a closer look

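Among the 14 groups of 5 arrays (7 genes in 2 tissues), 1 array stood apart from the rest of its group by Dixon's criterion, which chance meets in about 1 of 20 groups. Cortex array 4 gave 19.24 for Fabp7 after quantile normalization, where the remaining cortex arrays gave 19.34 to 19.36. On the log2 scale as deposited it gave 19.53 against 19.66 to 19.73, a gap less marked beside the spread of the arrays. Without cortex replicate 4 the gene was still called lower in retina.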

How the results depend on the processing

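Fabp7, Fabp5, Fabp3 and Fabp4 kept their direction and their call under all 18 alternatives, and the 4 pair ratios under all 13 run on them. Without normalization Crabp2 was called lower (-1.22), as it was in limma's test against a 1.5-fold difference (-0.83, adjusted p = 0.0195), Rbp4 turned to -0.14, and 2474 probes were called higher and 7621 lower over the whole array. Without dim probes Rbp4 had no value. Leaving out single arrays gave -6.85 to -6.78 for Fabp7, 0.35 to 0.44 for Crabp1, -0.87 to -0.78 for Crabp2 and -0.038 to 0.61 for Rbp4, the lowest without retina replicate 3. Replicate numbers gave no clear pairing: deviations of same-numbered arrays correlated at -0.02 to 0.03 and those of differently numbered arrays at -0.031 to 0.043. However, 3 of 5 retina arrays correlated best with their own number. With the number as a replicate block no member's call changed (Crabp2 at -0.83, limma adjusted p = 2.6e-06; Rbp4 at 0.37, adjusted p = 0.519). Of the 72 list genes named, 4 lost their call under at least 1 alternative, which were chosen for these lists after seeing the data, and 0 reversed. Aif1, Aldh1a2 and Cdh5 had no value without dim probes. Counts of list genes called lower were higher without normalization for retinoic acid synthesis (6, against 2), elongation and desaturation (5, against 3), endothelium (5, against 3), macrophages and microglia (2, against 1), and fatty acid oxidation, lens and receptors (1 each, against 0), and receptors called higher fell to 1, against 2. Without dim probes the count called lower fell to 0 for retinoic acid synthesis and for macrophages and microglia. The offset left it at 1 for retinoic acid synthesis. In limma's test against a 1.5-fold difference it was 1 for retinoic acid synthesis, receptors and fatty acid oxidation, and 1 receptor was called higher. With no detection flags, the sizes of the Fabp4 fold and, in part, the Fabp5 fold depend on signal below the olfactory receptor yardstick.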
